A study of Mus musculus with 10 samples.

Results

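The genes described here encode the nuclear subunits of the mitochondrial respiratory chain and ATP synthase. They were taken by name, as all genes on the array whose symbol begins with Nduf, Uqcr, Cox4, Cox5, Cox6, Cox7, Cox8 or Atp5, together with Sdha, Sdhb, Sdhc and Sdhd. That rule found 89 of 24704 genes, and RefSeq lists 85 of them as protein coding and 4 as pseudogenes. The names cover 34 subunits of complex I, 4 of complex II, 7 of complex III, 19 of complex IV and 13 of complex V, with 8 assembly factors of complex I. The 13 subunits encoded by mitochondrial DNA, and nuclear genes such as Cox7c and Atp5g1, were not analysed here.

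The RNA came from freshly isolated mouse liver sinusoidal endothelial cells, the fenestrated lining of the capillaries of the liver. In 5 samples, called knockout below, the mice came from a cross of Clec4g-icre transgenic driver mice, in which Cre is expressed from control sequences of a gene of this endothelium, with mice carrying floxed Gata4, a zinc finger transcription factor gene. The other 5 samples came from sibling control mice, labelled WT, and the labels do not state which of the alleles those siblings carried. Each sample was a pool of 3 livers from which cells were taken with beads against CD146, the product of Mcam, and hybridised to a 1-colour Affymetrix array. The labels give no sex, age or array batch.

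Electrons from NADH enter the chain at complex I and those from succinate at complex II, pass through ubiquinone to complex III and by cytochrome c to complex IV, which reduces oxygen. Complex V uses the resulting proton gradient to make ATP. Most subunits classed here as catalytic carry the redox centres, the quinone sites or the ATP-forming sites, whereas accessory subunits mostly stabilise or regulate the complexes. Endothelial cells make much of their ATP by glycolysis, and their mitochondria are also known for signalling and biosynthesis.

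Values are log2 array values after RMA, a summary of several probes per gene, and each array had a median of 3.71. Control replicate 1 was unlike the others: its correlation with them over all genes was 0.92 to 0.944, against 0.969 to 0.988 among the other 9. Where leaving it out turned the sign of an estimate given below for a respiratory chain gene, or moved it by more than 1.5 times, the value without it is given too. For genes and medians of the other lists that value is not given throughout. The sinusoidal endothelial marker list averaged 10.5 to 10.9 in knockout arrays and 10.99 to 11.28 in control arrays, far above the array median. Of its 11 genes 5 fell and none rose, with a median log2 fold change of -0.53, but the count was 0 with the replicate block and on leaving out any of knockout replicates 1 and 2 and control replicates 2, 3 and 4. Leaving out knockout replicate 4, or else control replicate 5, gave 1, and leaving out knockout replicate 5 gave 2. Gata4 itself averaged 8.59 ± 0.24 in knockout and 8.71 ± 0.15 in control samples (SD, n = 5 each), with an adjusted p of 0.742 by limma with Benjamini-Hochberg adjustment. No source here places its probes relative to the deleted part, so this reading does not check the labels. P-values measure the spread between pools, and fewer cells of a type cannot be told apart from less RNA per cell.

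None of the 89 genes passed the threshold of an adjusted p under 0.05 in the comparison of knockout with control samples, which 2.14% of all genes passed, 1.3% with higher and 0.846% with lower values (limma, Benjamini-Hochberg adjustment over 24704 genes). At an unadjusted p under 0.05 there were 8 of the 89, 7 of them with lower and 1 with higher values in knockout samples, against 13.6% of all genes, 6.57% lower and 7.07% higher. The groups did not overlap for 1 gene, Atp5b, which was higher in knockout samples, and for none on the lower side, against 4.93% of all genes, 2.55% higher and 2.37% lower. The smallest adjusted p was 0.182, for Cox6a1. Over both directions the shares of nominal and of non-overlapping genes were therefore below those among all genes, and 7 of 89 on the lower side is near the 6.57% of all genes. These shares were larger among the 12338 genes with a mean above the array median, where all but 13 of the 89 lay. There 1248 were nominally lower and 1224 higher, and 496 on the lower and 504 on the higher side did not overlap.

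The estimates still leaned to one side. The log2 fold change of knockout over control was below 0 in 64 of the 89 genes, or 71.9%, against 55.2% of all genes. Its median was -0.13, with quartiles of -0.25 and 0.01 and extremes of -1.26 and 0.38, and the median of all genes was -0.02. The median depended on single pools: it was -0.04 without knockout replicate 3, -0.05 without knockout replicate 5, -0.08 without control replicate 5 and -0.09 without control replicate 1. The genes share arrays, so these counts describe the samples and carry no test. The 95% confidence interval of the fold change lay within a 2-fold change either way for 83 of the 89 genes and within 1.5-fold for 48. The other 6 genes, whose intervals reached beyond 2-fold, were Ndufa12, Ndufa7, Cox5b, Cox6b1, Atp5o and Atp5md. The log2 fold change of Atp5md was -0.27, and 0.18 without control replicate 1. In 13 of the 89 genes the mean lay under the array median, where array fold changes are compressed.

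**Figure D1:**
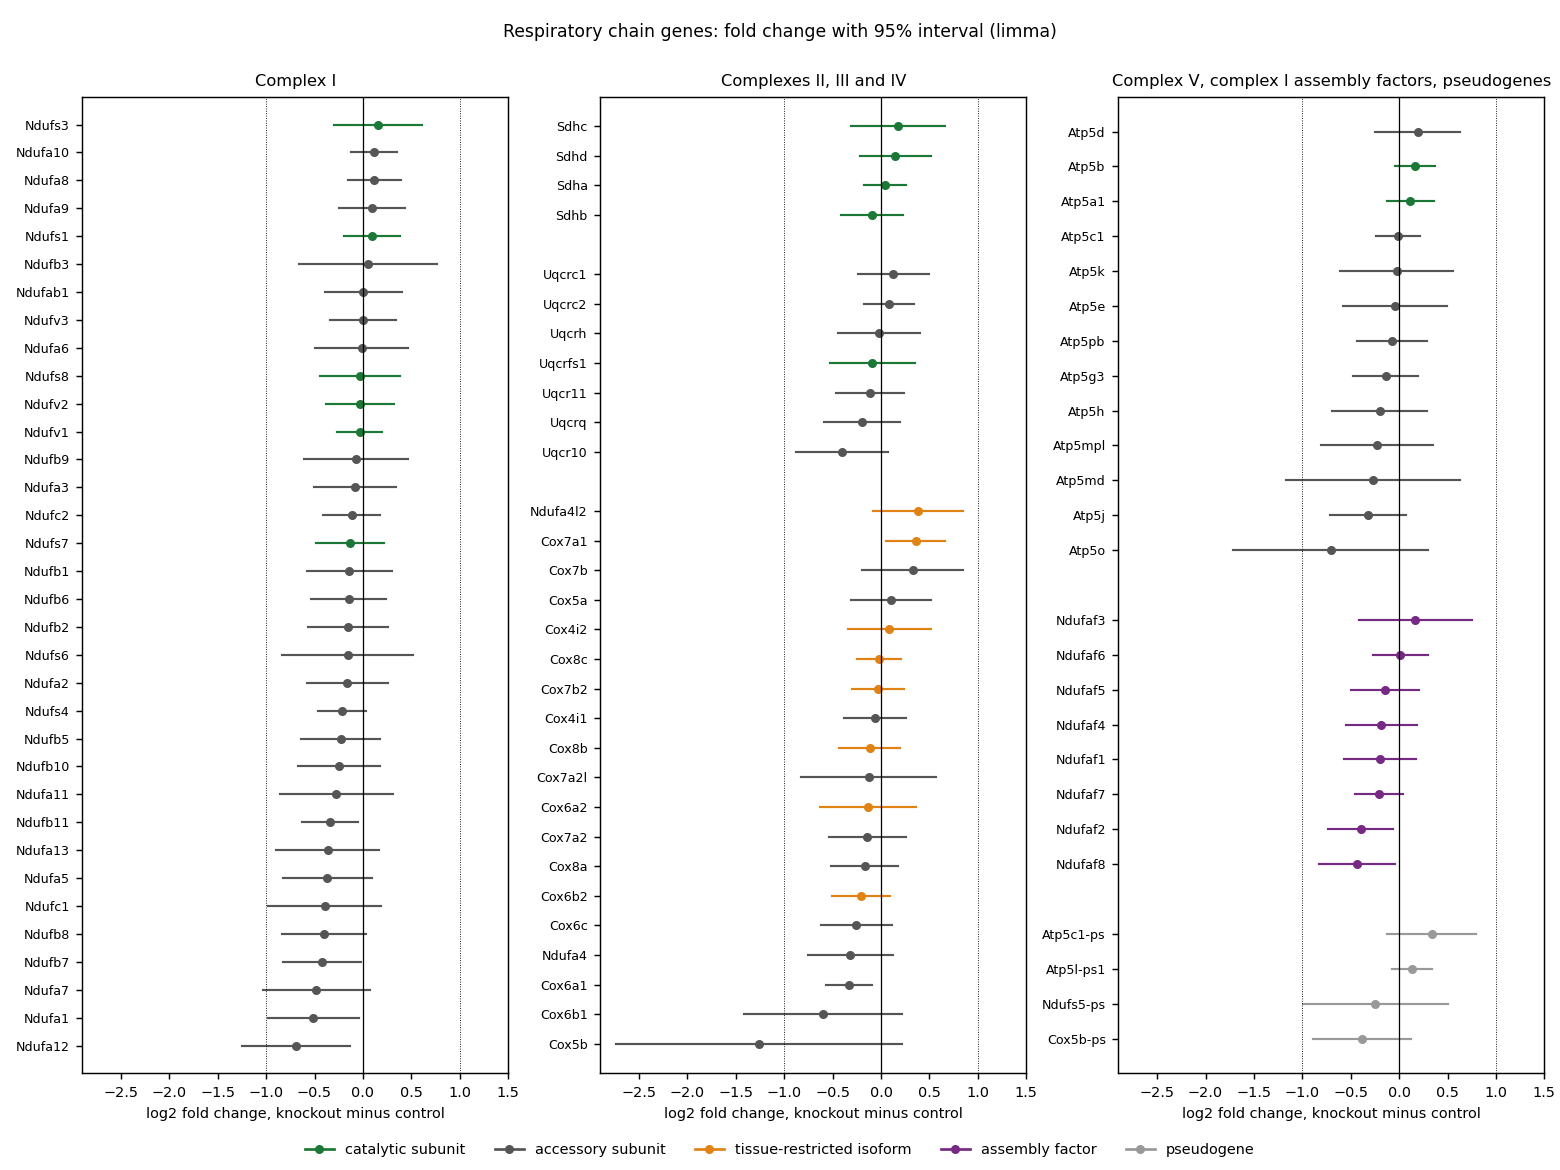
Log2 fold change of each of the 89 genes, knockout minus control (horizontal axis), with its 95% confidence interval from limma (n = 5 each) and colours for gene class. No gene passed the adjusted threshold, and 64 of the 89 points lie left of 0.

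The lean differed in size between classes of subunit, a division made after the values had been seen and therefore not tested. Among 56 accessory subunits 45 had a fold change below 0, or 80.4%, with a median of -0.15. Among 13 catalytic subunits 6 were below 0, with a median of 0.04 and a range from -0.13 to 0.18. All 13 catalytic intervals lay within 2-fold and 11 within 1.5-fold, against 50 and 26 of the 56 accessory ones. Without control replicate 1 the catalytic median was -0.01, with 8 of 13 below 0, and the accessory median -0.14, with 46 of 56 below 0. The accessory median was -0.06 without knockout replicate 3 and -0.10 without knockout replicate 5. The 8 tissue-restricted isoforms of complex IV had a median of -0.02, and 0.03 without control replicate 1.

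Promoter sequences are shown for 4 of the genes, from RefSeq on build GRCm38.p6: the ubiquitous isoform gene with the smallest p (Cox6a1), the muscle isoform gene with the highest complex IV estimate at an unadjusted p under 0.05 (Cox7a1), the gene whose groups did not overlap (Atp5b) and the flavoprotein gene of complex II (Sdha). Each is the 250 bases before the start of the gene, read in its direction of transcription, at chr5:115348959-115349208 on the minus strand for Cox6a1, chr7:30183921-30184170 on the plus strand for Cox7a1, chr10:128083057-128083306 on the plus strand for Atp5b and chr13:74350241-74350490 on the minus strand for Sdha. Capitals mark matches on either strand to GCGCA followed by any base and GCGC, letters bound by the mitochondrial gene regulator NRF1, or to CCGGAAG, a core bound by ETS factors such as GABPA.
Cox6a1: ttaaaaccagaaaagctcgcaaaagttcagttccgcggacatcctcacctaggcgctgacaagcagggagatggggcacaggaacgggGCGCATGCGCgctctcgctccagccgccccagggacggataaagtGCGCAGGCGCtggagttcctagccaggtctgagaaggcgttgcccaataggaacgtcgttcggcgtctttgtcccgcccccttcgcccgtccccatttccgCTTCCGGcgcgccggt
Cox7a1: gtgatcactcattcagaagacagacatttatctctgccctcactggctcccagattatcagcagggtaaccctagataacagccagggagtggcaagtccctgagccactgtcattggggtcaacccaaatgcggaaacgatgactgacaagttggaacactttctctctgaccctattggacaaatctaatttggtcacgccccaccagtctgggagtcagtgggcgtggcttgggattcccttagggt
Atp5b: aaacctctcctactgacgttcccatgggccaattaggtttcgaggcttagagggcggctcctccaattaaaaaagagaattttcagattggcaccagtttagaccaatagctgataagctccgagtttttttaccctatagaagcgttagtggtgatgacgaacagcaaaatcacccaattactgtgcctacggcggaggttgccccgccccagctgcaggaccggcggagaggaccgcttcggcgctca
Sdha: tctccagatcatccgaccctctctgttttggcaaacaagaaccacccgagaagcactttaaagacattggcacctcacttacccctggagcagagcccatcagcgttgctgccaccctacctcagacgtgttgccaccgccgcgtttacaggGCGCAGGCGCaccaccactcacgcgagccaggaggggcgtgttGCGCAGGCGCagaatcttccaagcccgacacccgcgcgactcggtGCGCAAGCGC
Counted from the gene start, with negative positions before it, the NRF1 letters began at -162 and -117 in Cox6a1, with ETS letters at -16, and at -98, -55 and -10 in Sdha. Cox7a1 and Atp5b held no match in this window. Windows of 300 bases, with 50 after the start, were held for 70 of the 89 genes, 75 windows in all. The NRF1 letters were in 17 of them (22.7%), against 4.6% of 32851 windows of all genes, and the ETS letters in 18 (24%), against 8.86%. AAGATGG, bound by YY1, was in 10 (13.3%) against 6.34%, and the E-box CACGTG, bound by MYC among others, in 5 (6.67%) against 7.15%. A match is a description of the letters and not a binding site.

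In complex I the catalytic arm gave estimates near 0. Ndufv1, which carries the NADH site, read 7.06, 7.17, 7.17, 7.38 and 7.21 in knockout replicates 1 to 5, against 7.02, 7.28, 7.19, 7.41 and 7.27 in control replicates 1 to 5. The groups covered the same range, and the log2 fold change was -0.03 ± 0.10 (SE), with a 95% interval from -0.26 to 0.19, and -0.09 without control replicate 1. Ndufs1, the largest iron-sulphur subunit, averaged 6.48 ± 0.09 in knockout and 6.39 ± 0.27 in control samples (SD, n = 5 each), a log2 difference of 0.09 with an interval from -0.20 to 0.38, and -0.03 without control replicate 1. Its control spread came from replicate 1, which read 5.92 while the other 4 lay between 6.42 and 6.55. Ndufs3, a subunit of the hydrophilic arm, had the highest estimate of complex I with all arrays, 0.16 ± 0.21 (SE). Without control replicate 1 it was 0.02, below the 0.12 of Ndufa8, an accessory subunit named here only for that order.

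The lowest complex I estimates were in accessory subunits. Ndufa12, which sits in the matrix arm, read 8.29, 7.94, 7.12, 7.66 and 7.34 in knockout replicates 1 to 5, against 9.05, 8.38, 8.14, 7.85 and 8.38 in control replicates 1 to 5. Knockout replicates 3, 4 and 5 lay below every control sample, and replicates 1 and 2 lay within the control range. The log2 fold change was -0.69 ± 0.25 (SE), with an interval from -1.24 to -0.14 and an adjusted p of 0.236 by limma, and it was -0.52 without control replicate 1. Ndufa1, an X-linked subunit of the membrane arm, read 6.99, 7.02, 6.41, 6.88 and 5.87 in knockout samples, against 7.08, 7.02, 6.98, 7.16 and 7.49 in control samples. Its lowest values were those of knockout replicates 3 and 5, and its log2 fold change was -0.51 ± 0.21 (SE, adjusted p = 0.313 by limma). Ndufb11, another X-linked membrane-arm subunit, averaged 4.83 ± 0.19 in knockout and 5.18 ± 0.21 in control samples (SD, n = 5 each), and its interval ran from -0.63 to -0.05 around -0.34, with an adjusted p of 0.263. Ndufb7, named after its values were seen as the remaining complex I gene at an unadjusted p under 0.05, had a log2 fold change of -0.43 ± 0.18 (SE, adjusted p = 0.33), and -0.25 without control replicate 1, which read 7.32 while the other control samples lay between 6.21 and 6.63. These 4 genes were the only ones of 34 complex I subunits at that nominal level, and the median of the 28 accessory ones was -0.16.

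Of the 8 complex I assembly factors, 6 had a fold change below 0 with all control samples and 8 without control replicate 1. Ndufaf8, which works with Ndufaf5 in assembling the complex, read 6.10, 5.78, 5.67, 6.01 and 5.95 in knockout samples, against 7.03, 6.10, 6.19, 6.20 and 6.17 in control samples. Knockout replicate 1 at 6.10 met the lowest control sample, so the groups touched, and control replicate 1 lay above the rest. Its log2 fold change was -0.44 ± 0.18 (SE, adjusted p = 0.3 by limma) and -0.26 without control replicate 1. Ndufaf2, a chaperone that resembles Ndufa12, had a log2 fold change of -0.40 ± 0.15 (SE, adjusted p = 0.266). Ndufaf7, an arginine methyltransferase, had a log2 fold change of -0.21 ± 0.11 (SE). Ndufaf3 had the highest estimate, 0.17 ± 0.27 (SE), and -0.11 without control replicate 1, whose reading of 4.33 lay below the 5.44 to 5.89 of the other control samples.

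All 4 subunits of complex II, the succinate dehydrogenase that also serves the citric acid cycle, were measured, and their estimates lay between -0.09 and 0.18. Sdha, the flavoprotein, read 8.75, 8.75, 8.86, 8.82 and 8.96 in knockout replicates 1 to 5, against 8.68, 8.77, 8.67, 8.97 and 8.85 in control replicates 1 to 5. The ranges coincided, and the log2 fold change was 0.04 ± 0.10 (SE), with an interval from -0.17 to 0.25, and 0.01 without control replicate 1. Sdhb, the iron-sulphur subunit, had a log2 fold change of -0.09 ± 0.14 (SE), and -0.06 without that array. The membrane anchors Sdhc and Sdhd, counted with the catalytic subunits because they hold the quinone site, gave 0.18 ± 0.22 and 0.15 ± 0.17 (SE). Both anchor estimates came from control replicate 1: without it they were -0.03 for Sdhc and -0.01 for Sdhd, and the complex II median was -0.02 in place of 0.09.

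In complex III the intervals of all 7 genes lay within 2-fold, and 5 of the 7 lay within 1.5-fold. Uqcrfs1, the Rieske iron-sulphur protein and the only catalytic subunit of this complex among the genes, gave -0.09 ± 0.20 on the log2 scale (SE; interval from -0.52 to 0.35), and 0.02 without control replicate 1. Uqcrc1 and Uqcrc2, the core proteins that face the matrix, gave 0.13 ± 0.17 and 0.09 ± 0.12 (SE), the second being 0.05 without control replicate 1. Uqcrc1 averaged 7.84 ± 0.11 in knockout and 7.71 ± 0.38 in control samples (SD, n = 5 each), and -0.04 was its log2 fold change without control replicate 1. Uqcr10, a small membrane subunit, read 5.88, 5.78, 4.96, 5.49 and 5.23 in knockout samples, against 5.46, 6.31, 5.83, 5.55 and 6.20 in control samples. Knockout replicates 3 and 5 were again the lowest, and its log2 fold change was -0.40 ± 0.22 (SE, adjusted p = 0.472 by limma). Uqcrq, another small subunit, had -0.20 ± 0.18 (SE), and -0.11 without control replicate 1. The median of the complex was -0.09, and 0.02 without control replicate 1.

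Complex IV held both the smallest p and the widest interval of the genes. Cox6a1, the ubiquitous form of a regulatory subunit, read 10.75, 10.77, 10.67, 10.98 and 10.45 in knockout replicates 1 to 5, against 10.98, 11.13, 11.04, 10.99 and 11.14 in control replicates 1 to 5. Knockout replicate 4 met the lowest control sample and the other 4 lay below every control sample. The means were 10.72 ± 0.19 in knockout and 11.05 ± 0.08 in control samples (SD, n = 5 each), and the log2 fold change was -0.33 ± 0.11 (SE), with an interval from -0.57 to -0.09 and an adjusted p of 0.182 by limma. Cox5b, a zinc-binding subunit, read 2.92, 2.75, 2.49, 2.26 and 2.30 in knockout samples, against 6.96, 3.01, 2.80, 2.90 and 3.37 in control samples. The estimate of -1.26 ± 0.68 (SE) rested on control replicate 1, and without it the log2 fold change was -0.47 with an adjusted p of 0.178, all readings then being under the array median. The row of its pseudogene Cox5b-ps read 7.40 to 8.73 in knockout and 8.14 to 8.61 in control samples, and whether its probes also bind the Cox5b transcript was not tested.

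Cox6b1, which faces the intermembrane space, read 7.27, 6.87, 5.73, 6.64 and 5.81 in knockout samples, against 8.21, 6.67, 6.54, 6.62 and 7.28 in control samples. Knockout replicates 3 and 5 lay below all control samples and replicates 1, 2 and 4 among them. Its estimate was -0.60 ± 0.37 (SE), and -0.32 without control replicate 1. Ndufa4, now counted as a subunit of complex IV in spite of its name, had the same 2 low samples, 8.04 and 7.90, while the other knockout samples lay between 8.67 and 8.92 and the control samples between 8.67 and 9.04. Its log2 fold change was -0.32 ± 0.20 (SE). Cox4i1 and Cox5a, which form an early assembly module, gave -0.06 ± 0.15 and 0.10 ± 0.19, Cox7a2 gave -0.14 ± 0.18, Cox8a -0.17 ± 0.16 and Cox7b 0.33 ± 0.24 (SE). Leaving out control replicate 1 moved Cox5a to 0.01, Cox7a2 to -0.25, Cox8a to -0.07 and Cox7b to 0.50 (adjusted p = 0.239 for Cox7b by limma). The supercomplex factor Cox7a2l gave -0.13 ± 0.32 (SE), and -0.38 without control replicate 1.

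Among the 8 tissue-restricted isoforms of complex IV the highest estimates were those of Ndufa4l2 and Cox7a1. Cox7a1, the heart and skeletal muscle form of Cox7a2, read 3.42, 3.72, 3.20, 3.28 and 3.44 in knockout replicates 1 to 5, against 2.87, 3.42, 2.89, 2.93 and 3.19 in control replicates 1 to 5. The ranges overlapped through control replicate 2, and nearly all readings lay under the array median. The estimate for Cox7a1 was 0.36 ± 0.14 (SE), its interval running from 0.05 to 0.66, and an adjusted p of 0.277 by limma. Of 8 striated muscle markers none passed, and that list averaged 3.78 to 3.97 in knockout and 3.82 to 4.43 in control arrays.

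Ndufa4l2, a paralogue of Ndufa4 known as a hypoxia-inducible gene and a pericyte marker, read 4.76, 5.25, 4.54, 4.86 and 3.98 in knockout samples, against 4.43, 4.35, 4.43, 3.85 and 4.42 in control samples. The first 4 knockout samples lay above every control sample and replicate 5 lay below all but control replicate 4. The log2 fold change was 0.38 ± 0.21 (SE), with an interval from -0.09 to 0.85 and an adjusted p of 0.494. Of 12 pericyte markers 2 rose (1 to 4 over the alternatives): Cspg4, with a log2 fold change of 0.70 (adjusted p = 0.0398), and Mcam, 1.24 (adjusted p = 0.000242), which is also an endothelial marker and encodes the antigen by which the cells were selected. The list averaged 6.86 to 7.56 in knockout and 5.49 to 6.63 in control arrays, without overlap, and its part in the Ndufa4l2 readings was not tested. Cox4i2, the oxygen-regulated partner form of Cox4i1, gave 0.09 ± 0.19 (SE), and 0.16 without control replicate 1. The muscle and testis forms Cox6a2, Cox6b2, Cox7b2, Cox8b and Cox8c gave log2 fold changes of -0.14, -0.21, -0.03, -0.12 and -0.02. Without control replicate 1 the sign of Cox6a2 turned, to 0.06, and Cox6b2 stood at -0.12, Cox7b2 at -0.06 and Cox8b at -0.21.

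**Figure D2:**
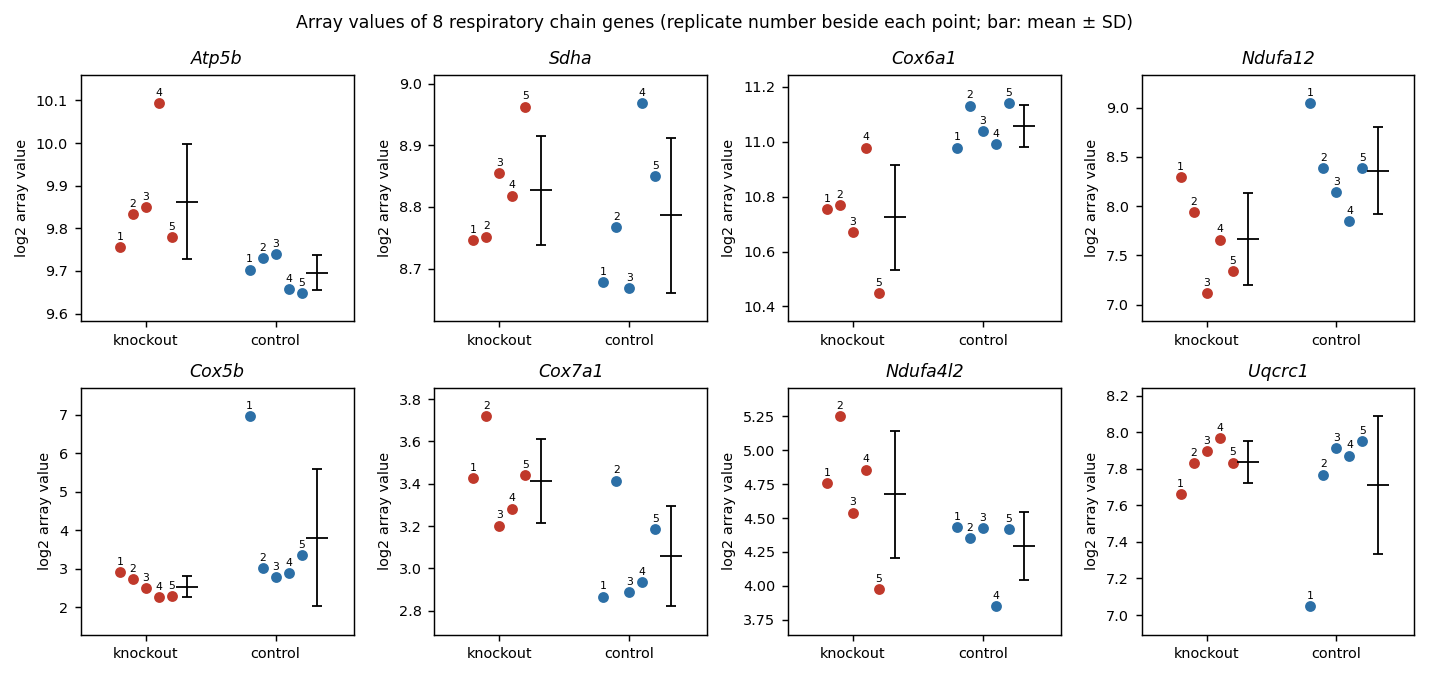
Log2 array values of 8 genes, with knockout arrays left and control arrays right, replicate numbers beside the points, and bars for mean ± SD (n = 5 each). Atp5b separates the groups, Cox6a1 meets at 10.98, and control replicate 1 lies far from the other control samples for Cox5b and Uqcrc1.

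In complex V, the catalytic beta chain was the gene whose groups did not overlap. Atp5b read 9.76, 9.83, 9.85, 10.09 and 9.78 in knockout replicates 1 to 5, against 9.70, 9.73, 9.74, 9.66 and 9.65 in control replicates 1 to 5. Every knockout sample lay above every control sample, by little: the means were 9.86 ± 0.13 in knockout and 9.70 ± 0.04 in control samples (SD, n = 5 each). On the log2 scale the difference was 0.17 ± 0.09 (SE), with an interval from -0.04 to 0.37 and an adjusted p of 0.503 by limma. The control SD of Atp5b was the smallest of the 89 genes. Atp5a1, the alpha chain, read 9.45, 9.66, 9.44, 9.84 and 9.37 in knockout samples, against 9.32, 9.53, 9.48, 9.45 and 9.40 in control samples, and its log2 fold change was 0.11 ± 0.11 (SE), with an interval from -0.13 to 0.36.

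Of the 11 other complex V subunits 10 had a fold change below 0, with a median of -0.14. Atp5o, the stalk subunit that confers oligomycin sensitivity, had the lowest estimate, -0.71 ± 0.46 (SE), and -0.28 without control replicate 1, which read 7.46. Its other samples were 4.45, 4.69, 5.53, 4.54 and 5.93 in knockout and 4.95, 5.16, 5.28 and 5.83 in control samples, and here knockout replicates 3 and 5 were the highest of their group. Atp5j, coupling factor 6 of the peripheral stalk, gave -0.32 ± 0.18 (SE, adjusted p = 0.491). Atp5d, the central stalk's delta chain, gave the highest estimate, 0.19 ± 0.20 (SE), and -0.01 without control replicate 1.

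The lean of the accessory subunits was carried by particular pools. Relative to each gene's mean over the 10 arrays, the median accessory subunit stood at 0.13, 0.09, -0.33, 0.10 and -0.42 log2 units in knockout replicates 1 to 5, against 0.15, -0.03, -0.00, -0.01 and 0.23 in control replicates 1 to 5. Knockout replicates 3 and 5 were therefore low, control replicate 5 was high, and the other 3 knockout samples lay within the control range. The median catalytic subunit stood at -0.02, 0.09, -0.05, 0.26 and -0.13 in knockout arrays, against -0.17, 0.04, -0.04, 0.11 and 0.12 in control arrays. The same median over all genes stayed within -0.03 and 0.01.

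Knockout replicate 5 was the lowest knockout array for 45 of the 89 genes (50.6%), against 23.8% of all genes, and replicate 3 for 25 (28.1%), against 15.6%. Control replicate 1 was the lowest control array for 34 of the genes (38.2%) and the highest for 33 (37.1%), against 35% and 30.7% of all genes. Among all genes with a mean above the array median these shares were 44.6% and 32.8%. Control replicate 5 was the highest control array for 36 (40.4%), against 16.6% of all genes. Spread within the knockout group was larger for these genes than for others: the median SD was 0.29 in knockout and 0.25 in control samples, against 0.21 and 0.24 for all genes. For all genes with a mean above the array median it was 0.22 in knockout and 0.27 in control samples.

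**Figure D3:**
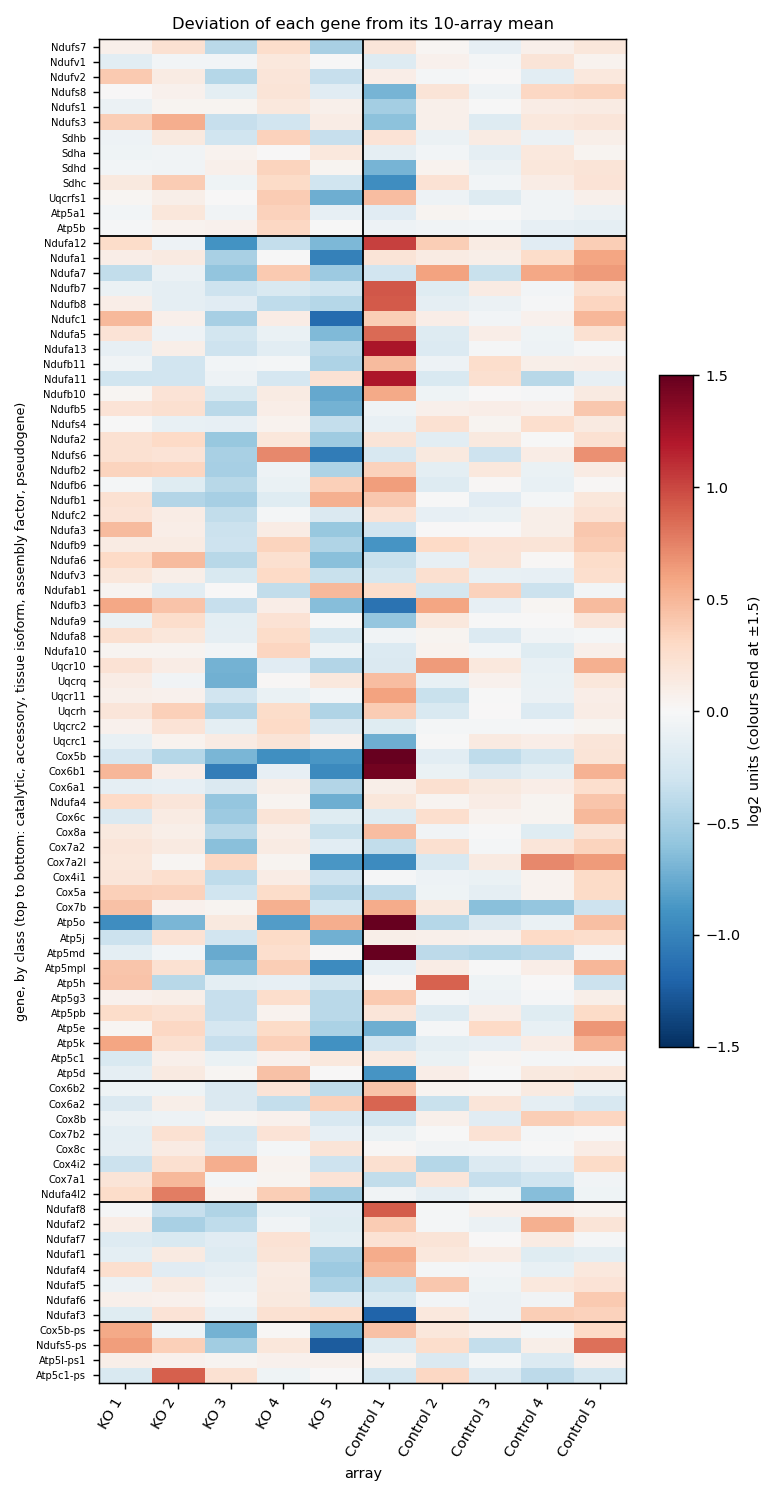
Deviation of each of the 89 genes (vertical axis, by class) from its mean over the 10 arrays (horizontal axis, knockout left), in log2 units with colours ending at ±1.5. Knockout replicates 3 and 5 are low across most accessory subunits, and control replicate 1 holds both high and low genes.

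Markers of other cell types varied over the same arrays. The hepatocyte list averaged 8.09, 6.69, 6.73, 7.89 and 6.39 in knockout replicates 1 to 5, against 6.69, 6.82, 7.23, 7.08 and 6.83 in control replicates 1 to 5. Within the knockout group the samples with low accessory subunits, replicates 3 and 5, had low hepatocyte readings, as had replicate 2. The control samples did not follow this order. Control replicates 1 and 5, the highest in accessory subunits (0.15 and 0.23), averaged 6.69 and 6.83 for hepatocyte markers, below control replicates 3 and 4. Most of that list read higher in knockout samples: 11 of its 15 genes had a fold change above 0, none of them past the threshold, and the median log2 fold change was 0.65. The 2 that fell (1 or 2 over the alternatives) were the cytochrome P450 genes Cyp2c29 and Cyp2e1. The cholangiocyte list averaged 6.56, 6.96, 5.11, 5.91 and 4.89 in knockout samples, against 3.79, 4.81, 4.22, 3.81 and 3.97 in control samples, with knockout replicates 3 and 5 lowest in their group and all above the control samples. Of its 8 genes 3 rose, a count that was 0 when knockout replicate 1, 2 or 4, or else control replicate 4 or 5, was left out, 1 without control replicate 3, and 6 without knockout replicate 5. The neutrophil and monocyte list averaged 4.27 to 5.85 in knockout and 3.08 to 3.68 in control arrays, and 6 of its 12 genes rose. None passed among 12 Kupffer cell, 12 stellate cell, 11 lymphocyte and 4 erythroid markers. RMA values have no zero, so no marker could be called absent, and the part of these cells in the subunit readings was not tested.

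**Figure D4:**
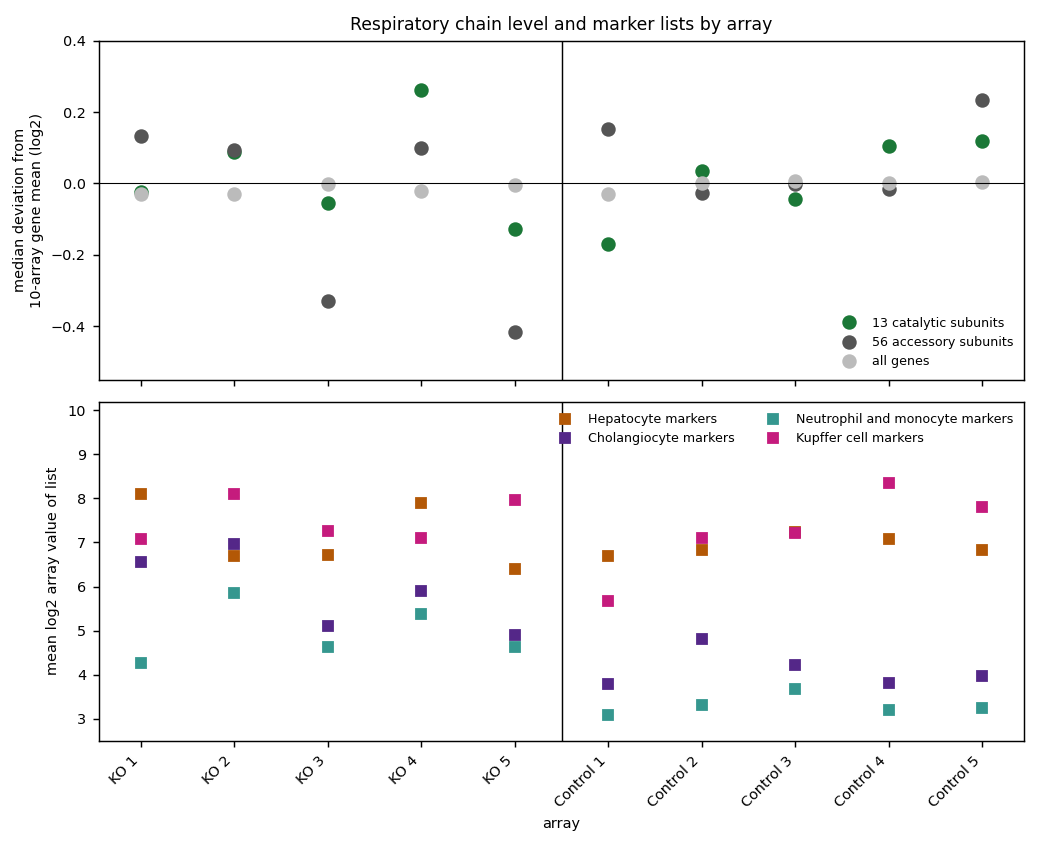
Upper panel: median deviation of 13 catalytic subunits, 56 accessory subunits and all genes from their 10-array means, by array (log2 units, knockout left). Lower panel: mean log2 array value of 4 marker lists by array; knockout replicates 3 and 5 have the lowest accessory readings, at -0.33 and -0.42.

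Other lists of the same pathways were read beside the subunits. Of 39 assembly factors of the respiratory complexes none passed, the median log2 fold change was -0.18 and 5 were above 0. Surf1, an assembly factor of complex IV, read 6.09, 6.02, 5.97, 6.11 and 6.04 in knockout samples, against 6.47, 6.24, 6.28, 6.68 and 6.35 in control samples. All knockout samples lay below all control samples, with a log2 fold change of -0.36 ± 0.11 (SE, adjusted p = 0.128 by limma). The complex II factor Sdhaf4 gave -0.50 ± 0.18 (SE, adjusted p = 0.21). None of 18 genes of cytochrome c, coenzyme Q synthesis and mitochondrial carriers passed, with a median of 0.02 over all arrays. The list averaged 5.45 in control replicate 1, against 5.66 to 5.79 in the other control arrays, so the sign of that median depended on this array. The outer membrane channel Vdac1 gave 0.41 ± 0.15 (SE, adjusted p = 0.237 by limma).

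Of 16 genes of pyruvate dehydrogenase and the citric acid cycle none passed, and 13 had a fold change above 0, with a median of 0.11. Part of this lean came from control replicate 1, where the list averaged 6.80, against 6.96 to 7.02 in the other control arrays. Idh3a, for example, read 4.00 there, against 5.84 to 6.08. Suclg2, a subunit of GTP-forming succinyl-CoA ligase, read 7.53, 7.52, 7.53, 7.78 and 7.60 in knockout samples, against 7.39, 7.25, 7.13, 7.15 and 7.19 in control samples. The groups did not overlap, and the log2 fold change was 0.37 ± 0.10 (SE, adjusted p = 0.0857 by limma). It passed the threshold without control replicate 1 (adjusted p = 0.0423) and with array weights (adjusted p = 0.0239).

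Among 17 regulators of mitochondrial biogenesis 1 rose. Myc, a growth-promoting transcription factor, averaged 6.99 ± 0.35 in knockout and 5.29 ± 0.27 in control samples (SD, n = 5 each), 1.70 ± 0.18 higher on the log2 scale (SE, adjusted p = 0.000732 by limma). The dedicated regulators did not pass: Ppargc1a gave 0.41 ± 0.19, Ppargc1b -0.02 ± 0.17, Nrf1 0.04 ± 0.14, Gabpa 0.30 ± 0.12, Esrra -0.26 ± 0.16 and Tfam, which packages mitochondrial DNA, -0.32 ± 0.18 (SE). All Ppargc1a readings, from 1.92 to 2.93, lay under the array median. Gabpa, the DNA-binding part of the ETS factor named above, was higher in every knockout than in every control sample (adjusted p = 0.276 by limma). Among control samples replicate 1 was lowest for Gabpa (6.44, others 6.81 to 6.96), Nrf1 (5.01, others 5.26 to 5.67) and Ppargc1b (3.68, others 3.80 to 4.40). It was highest for Esrra (6.17, others 5.55 to 5.98). The estimates of Gabpa, Nrf1, Ppargc1b and Esrra therefore depended on that array, and are not given without it.

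Of 15 hypoxia-responsive genes 3 rose (2 to 4 over the alternatives), with a median of 0.08. The oxygen-dependent prolyl hydroxylase Egln3 had a log2 fold change of 2.07 ± 0.31 (SE, adjusted p = 0.00549 by limma), and the growth factor Vegfa 1.45 ± 0.20 (SE, adjusted p = 0.00312). The glucose transporter Slc2a1 had 1.87 ± 0.40 (SE, adjusted p = 0.0348), and lost its call on leaving out any of knockout replicates 1, 2, 4 and 5 or of control replicates 3 and 5, with an adjusted p of up to 0.0941. Myc and Vegfa are expressed in many cell types, and the part of the other cell types listed above was not tested.

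**Figure D5:**
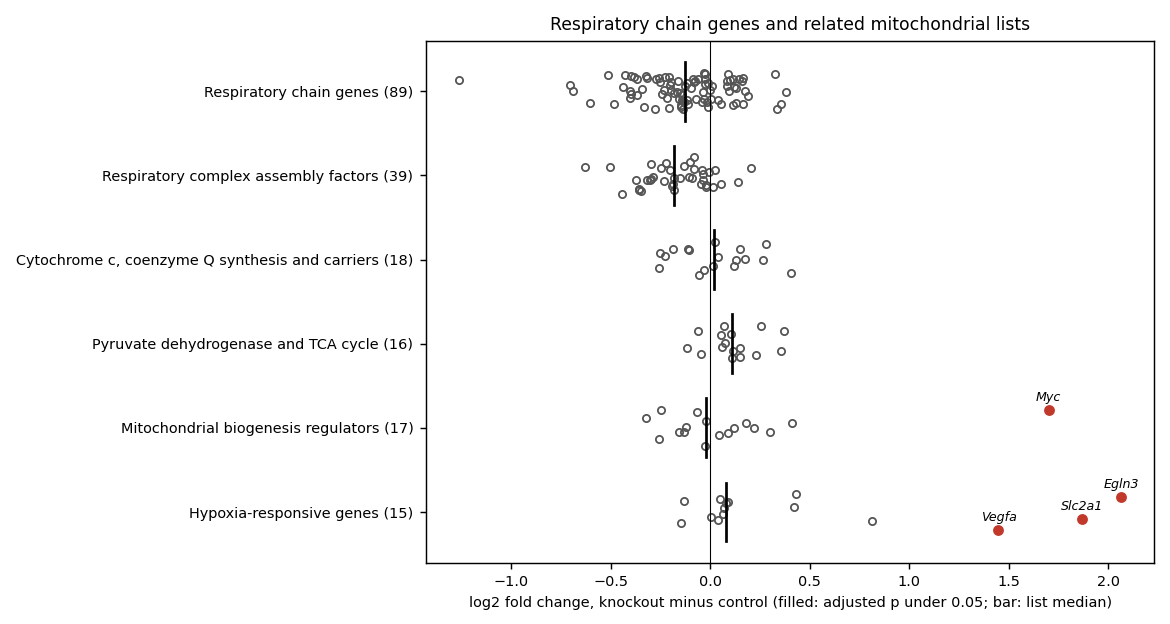
Log2 fold change, knockout minus control (horizontal axis), of the 89 respiratory chain genes and of 5 related lists, each point 1 gene, filled where the adjusted p was under 0.05, with a bar at each list's median. Filled points are Myc among the regulators and Egln3, Vegfa and Slc2a1 among the hypoxia-responsive genes.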

How the data were processed

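The authors deposited 1 value per probe set and array, produced by RMA, per the submitters' processing notes; its version is not given. Their range is that of log2 values, and the deposited arrays shared 1 distribution, so they were used without further normalization. Fold changes are therefore relative to each array as a whole, and the number of arrays sets the precision. The table held 25428 probe sets, 723 of them unnamed; for 1 repeated symbol the brighter probe set was kept, which left 24704 genes, none removed for low values. The 5 knockout and 5 control arrays were compared with limma 3.58.1 in R 4.3.3 (lmFit and eBayes, no covariate), with Benjamini-Hochberg adjustment over all genes and a threshold of 0.05. The code was tested on simulated data, in which genes varied independently, unlike here. There 29.5% of true 1.5-fold and 70.9% of true 2-fold changes passed. Groups came from the labels. No pair of arrays was identical. The members and lists were chosen with earlier results of these data known. Named genes were those past the threshold or without overlap, the extremes and 3 smallest p of each complex, and the listed isoforms and core subunits. Alternatives were a replicate block, array weights, a trend with robust prior, a filter on dim genes, cyclic loess, subunits alone and leaving out each array. Promoter windows were matched to RefSeq by gene identifier.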

Additional observations from a re-analysis of the deposited data

Results flagged for a closer look

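In 84 groups of 5 arrays, for the named subunit and assembly genes, 11 held a reading far from the other 4 (gap over range above Dixon's critical value of 0.71), which chance gives in about 5% of groups that were not picked for their values. These genes share arrays and were named partly for extreme estimates, lack of overlap or spread, so that percentage does not apply to them and the count is a description. Control replicate 1 held 6 of the 11. It read high for Cox5b, at 6.955 against 2.797 to 3.366 in the other control arrays, and for Ndufaf8, at 7.028 against 6.096 to 6.199. It read low for Atp5d (5.082, against 5.963 to 6.135), Ndufs1 (5.918, against 6.422 to 6.552), Sdhc (5.999, against 6.887 to 7.146) and Uqcrc1 (7.048, against 7.769 to 7.952).

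Knockout replicate 4 read high for Atp5b, at 10.09 against 9.757 to 9.85 in the other knockout arrays, and for Ndufaf7, at 5.732 against 5.284 to 5.361. Knockout replicate 5 read low for Cox7a2l, at 3.125 against 4.026 to 4.3, and knockout replicate 3 low for Uqcrq, at 5.836 against 6.506 to 6.721. Control replicate 4 read low for Ndufa4l2, at 3.85 against 4.35 to 4.433 in the other control arrays.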

How the results depend on the processing

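No respiratory chain gene passed the threshold under any of the alternatives run, subunits alone included; over the 42 named ones the smallest adjusted p was 0.109 (Ndufa12, replicate block), and 15 changed the sign of an uncalled estimate in at least 1 alternative. The replicate block gave 275 genes past the threshold (200 higher, 75 lower) in place of 529 (320 and 209), and array weights gave 1070 (616 and 454). Leaving out 1 array gave 287 to 737 genes, 182 to 394 higher and 105 to 343 lower. It also gave 3 to 12 members at an unadjusted p under 0.05 (3, 4 and 12 without knockout replicates 3, 2 and 1, and 5 without control replicate 4), 1 to 2 without overlap on the higher side and 0 to 3 on the lower side, and a median member log2 fold change of -0.17 to -0.04, against -0.07 with array weights. Same-numbered arrays did not deviate together (correlations of -0.17 to 0.04, and 0 of 10 arrays correlated best with its own number). The labels do not say whether equal numbers mark samples handled together, and these correlations cannot decide it. Signal over background could not be read, since no detection calls were used.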

Other observations

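Over the 67 subunit genes with a mean above the array median, the median pairwise Pearson correlation across arrays was 0.55 in the 5 knockout arrays, 0.20 in the 5 control arrays and 0.50 in the 4 control arrays without replicate 1. Over pairs of all 12338 genes above the array median it was 0.01, 0.02 and 0.00 in the same 3 sets of arrays. These are descriptions over few arrays that share their normalization, with no test.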
